A study of Mus musculus with 12 samples.

Results

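The genes described here are 10 members of the cohesin complex and the meiotic chromosome axis, chosen by symbol from the 22180 genes that the arrays' platform annotation names. The meiotic group has 6 members (Rec8, Rad21l, Stag3, Smc1b, Hormad1 and Hormad2), and the general group has 4 cohesin subunits of dividing and non-dividing cells (Rad21, Stag1, Stag2 and Smc3). Each of the 10 genes had 1 transcript cluster (the array's set of probes for a transcript) with a single symbol. The testes came from C57BL/6N mice at 2 weeks of age. The 12 arrays, 1 for each whole-testis sample, were 3 of mice with Sox3 knocked out by CRISPR/Cas9 (KO), 3 of the line Sox3-Sox2KI (KI), also made by CRISPR/Cas9, in which the coding sequence of the related Sox2 stands in place of that of Sox3, 3 of wild-type littermates of the KI mice (WT 1 to WT 3) and 3 of wild-type littermates of the KO mice (WT 4 to WT 6). Sox3 is a SoxB1 transcription factor encoded on the X chromosome, and the study compared each of the mutants with all 6 wild-type (WT) testes.

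Cohesin is a protein ring that holds sister chromatids together and shapes chromosome loops. It is built from 2 SMC proteins, a kleisin that closes the ring and a STAG subunit bound to the kleisin. Germ cells that enter meiosis make their own versions of most of these parts: the kleisins REC8 and RAD21L in place of RAD21, STAG3 in place of STAG1 and STAG2, and SMC1B in place of SMC1A, while SMC3 is shared. These cohesins form the base of the chromosome axis, a rod along each chromosome on which the synaptonemal complex is assembled. HORMAD1 and HORMAD2 coat axes that have not yet paired and are taken off as homologous chromosomes synapse. In the mouse testis at this age the first wave of germ cells has reached meiotic prophase.

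The promoters of the 3 genes that passed the test in KO testes and of Smc1b, the next member in rank, are shown because these 4 genes were low in the same testes. They are the 250 bases before the RefSeq start of each gene on GRCm38.p6, read 5′ to 3′ on the gene's strand. Capitals mark matches to the 7 motifs searched on both strands, which were AACAAT and ACAAAG (SOX), CACGTG (E-box), GCGGGAA (E2F), CNCCTCAG (STRA8), AACNGTC (MYB) and TGACGTCA (CRE). The windows lie at chr3:95559427-95559676, plus strand (Hormad1), chr11:4441083-4441332, minus strand (Hormad2), chr5:138280259-138280508, plus strand (Stag3) and chr15:85131958-85132207, minus strand (Smc1b).
Hormad1: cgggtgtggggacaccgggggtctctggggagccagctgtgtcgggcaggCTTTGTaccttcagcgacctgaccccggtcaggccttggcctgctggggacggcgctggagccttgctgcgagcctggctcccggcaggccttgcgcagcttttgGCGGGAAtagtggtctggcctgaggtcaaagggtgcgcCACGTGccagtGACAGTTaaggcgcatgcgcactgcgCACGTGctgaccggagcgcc
Hormad2: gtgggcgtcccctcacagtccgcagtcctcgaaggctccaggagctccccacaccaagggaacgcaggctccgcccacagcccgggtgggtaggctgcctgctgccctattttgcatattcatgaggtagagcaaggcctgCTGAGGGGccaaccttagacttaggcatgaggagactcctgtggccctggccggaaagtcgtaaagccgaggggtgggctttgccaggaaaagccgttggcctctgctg
Stag3: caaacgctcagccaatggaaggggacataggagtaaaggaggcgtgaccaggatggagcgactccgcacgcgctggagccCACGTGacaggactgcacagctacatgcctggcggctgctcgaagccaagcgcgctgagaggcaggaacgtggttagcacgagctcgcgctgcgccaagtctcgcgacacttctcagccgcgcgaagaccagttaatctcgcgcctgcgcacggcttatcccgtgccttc
Smc1b: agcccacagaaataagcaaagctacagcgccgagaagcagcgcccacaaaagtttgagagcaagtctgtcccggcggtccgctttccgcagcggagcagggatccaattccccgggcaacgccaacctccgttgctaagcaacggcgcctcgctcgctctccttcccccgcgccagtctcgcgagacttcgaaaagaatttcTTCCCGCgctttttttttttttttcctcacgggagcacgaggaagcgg

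Of the 10 members, 8 had a promoter in the RefSeq table, and Rad21 and Stag2 were not matched. In windows of 250 bases before to 50 after the start, GCGGGAA or its reverse complement TTCCCGC was found in 4 of these 8, against 4.7% of 27025 promoters of the same length. The 4 were Hormad1, Stag3, Smc1b and the general subunit Stag1. Their 250 bases before the start held 58.0% to 71.2% G and C and 19 to 31 CG steps, against medians of 52.0% and 6 over all promoters. Smc3, at 64.4% and 26, had no match. The share of 4.7% was not adjusted for this base content. In Stag3 the match began 3 bases before the start and ran past it, so it is not in the stretch shown. The E-box CACGTG, present in 7.2% of promoters, was found in Hormad1, at 2 positions, and in Stag3. The SOX letters ACAAAG, present in 18.7% of promoters, occurred in Rec8 and Hormad1, and AACAAT, present in 10.9%, in no member's window. The AACNGTC letters (8.1% of promoters) occurred in Hormad1 and CNCCTCAG (8.0%) in Hormad2, while TGACGTCA (1.9%) occurred in no member's window. The windows of Rad21l and Smc3 held none of the motifs searched. No 2 matches overlapped. These are matches of letters in a fixed window and show no binding.

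Levels are deposited log2 values, on which a step of 1 is a doubling of signal. The array medians lay between 5.74 and 5.82, and the 95th percentile of 1088 olfactory receptor genes, which most tissues do not express, gave a background limit of 5.33. All 10 members lay above it in every testis. Sox3, the targeted gene, was at 7.21 to 7.36 in WT, 6.57 to 6.65 in KO and 6.75 to 7.26 in KI testes. The 3 KO testes were below every WT testis, and the KI testes overlapped WT. Which part of Sox3 the probes cover is not known here, so these values, all above the background limit, cannot show whether the coding sequence was lost. The change was -0.68 in KO (limma adjusted p = 0.0161) and -0.30 in KI testes (limma adjusted p = 0.945). Over all genes the median 95% interval reached 0.22 to either side of a difference between a mutant and WT, and the number of arrays limits this precision. Replicates are labelled as biological, and the submitters describe the KO and KI samples as independent, but no animals are named, so p-values measure the spread between these samples. Markers of the labelled tissue were well above background, with a mean of 8.99 to 9.90 for 11 germ cell genes and of 9.48 to 9.92 for 16 Sertoli cell genes.

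Hormad1, Hormad2 and Stag3 fell in KO testes. Hormad1 fell 2.53-fold, Hormad2 1.97-fold and Stag3 1.48-fold, and no general cohesin subunit passed the test. By count, 3 of the 6 meiotic members were called lower and the other 3 missed the threshold, as did all 4 general members. The test was limma over all 22180 genes with Benjamini-Hochberg adjustment at 0.05, which called 4.86% of genes in either direction and 2.34% as lower in KO testes. At an unadjusted p under 0.05 were 4 members, all meiotic, and 24.2% of all genes. All 6 meiotic differences were negative, where 40.2% of all genes had a negative difference. Their median was -0.46, and the 4 general ones had a median of 0.07, against 0.04 over all genes. Whole testes were measured, so fewer cells of a type and less RNA per cell cannot be told apart.

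Hormad1, whose protein recruits other factors to unsynapsed axes, had the largest difference of the 10. It was at 7.31 in KO 1, 8.38 in KO 2 and 7.47 in KO 3, and its 6 WT values ran from 8.49 through a median of 9.12 to 9.59. Every KO testis was below every WT testis, but KO 2 came close to WT 6, the lowest WT testis. The mean fell from 9.06 ± 0.41 (SD, n = 6) to 7.72 ± 0.58 (SD, n = 3), a log2 change of -1.34 (SE 0.26, 95% interval -1.899 to -0.78, limma adjusted p = 0.0310). Hormad2, its close relative, showed the same order of the KO testes. It was at 6.65 in KO 1, 7.38 in KO 2 and 6.68 in KO 3, and at 7.48 to 8.28 in WT with a median of 7.90. The KO and WT testes did not overlap, and KO 2 was again the highest of the KO group. The log2 change was -0.98 (SE 0.21, 95% interval -1.44 to -0.52, limma adjusted p = 0.0325).

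Stag3, the STAG subunit of meiotic cohesin, fell less than the HORMAD genes but also without overlap. It was at 9.55 in KO 1, 10.09 in KO 2 and 9.86 in KO 3, and at 10.23 to 10.57 in WT with a median of 10.44. The log2 change was -0.57 (SE 0.12, 95% interval -0.82 to -0.32, limma adjusted p = 0.0317). Smc1b, which takes the place of the SMC1A arm of the ring, lay just outside the threshold. It was at 10.001 in KO 1, 10.41 in KO 2 and 10.27 in KO 3, against 10.42 to 10.66 in WT with a median of 10.59. The groups did not overlap, though KO 2 (10.41) came close to WT 4 (10.42). The log2 difference was -0.35 (SE 0.09, limma adjusted p = 0.0515). It passed in 7 of 22 other settings of the fit, among them a new quantile normalization and a filter on dim genes. Against the KO littermates alone Smc1b did not pass (-0.30, limma adjusted p = 0.233).

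The meiotic kleisins did not pass. Rec8, the kleisin that keeps sister chromatids joined through the first meiotic division, was at 7.23 in KO 1, 7.54 in KO 2 and 7.51 in KO 3. Its WT values were 7.49 to 7.78, so KO 2 and KO 3 lay among them. The log2 difference was -0.17 (SE 0.08, 95% interval -0.35 to 0.01, limma adjusted p = 0.231). Rad21l, a kleisin of early prophase, was at 7.54 in KO 1, 8.06 in KO 2 and 7.65 in KO 3, and at 7.81 to 8.29 in WT. KO 2 lay inside the WT range and the other KO testes below it. The log2 difference was -0.28 (SE 0.13, 95% interval -0.56 to 0.01, limma adjusted p = 0.218).

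None of the general subunits passed the test in KO testes. Rad21, the kleisin of mitotic cohesin, was at 10.37 to 10.43 in KO and 10.22 to 10.37 in WT testes (log2 difference 0.11, limma adjusted p = 0.267). Smc3, the subunit that general and meiotic rings share, was at 10.38 to 10.45 in KO and 10.32 to 10.53 in WT testes (0.03, limma adjusted p = 0.836). Stag1 was at 9.62 in KO 3, below every WT testis, and at 9.90 in both other KO testes, inside the WT range of 9.82 to 9.96 (log2 difference -0.09, limma adjusted p = 0.492). Stag2, which is encoded on the X chromosome, was at 8.90 to 8.99 in KO and 8.64 to 9.004 in WT testes (0.18, limma adjusted p = 0.227). The 95% intervals of these 4 differences ran from -0.24 for Stag1 to 0.36 for Stag2, so smaller changes than these are not shown to be absent. Of the 10 members, the KO testes lay wholly below WT for 4, all meiotic, and wholly above for none. Over all genes 4.59% were wholly below and 6.87% wholly above.

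**Figure D1:**
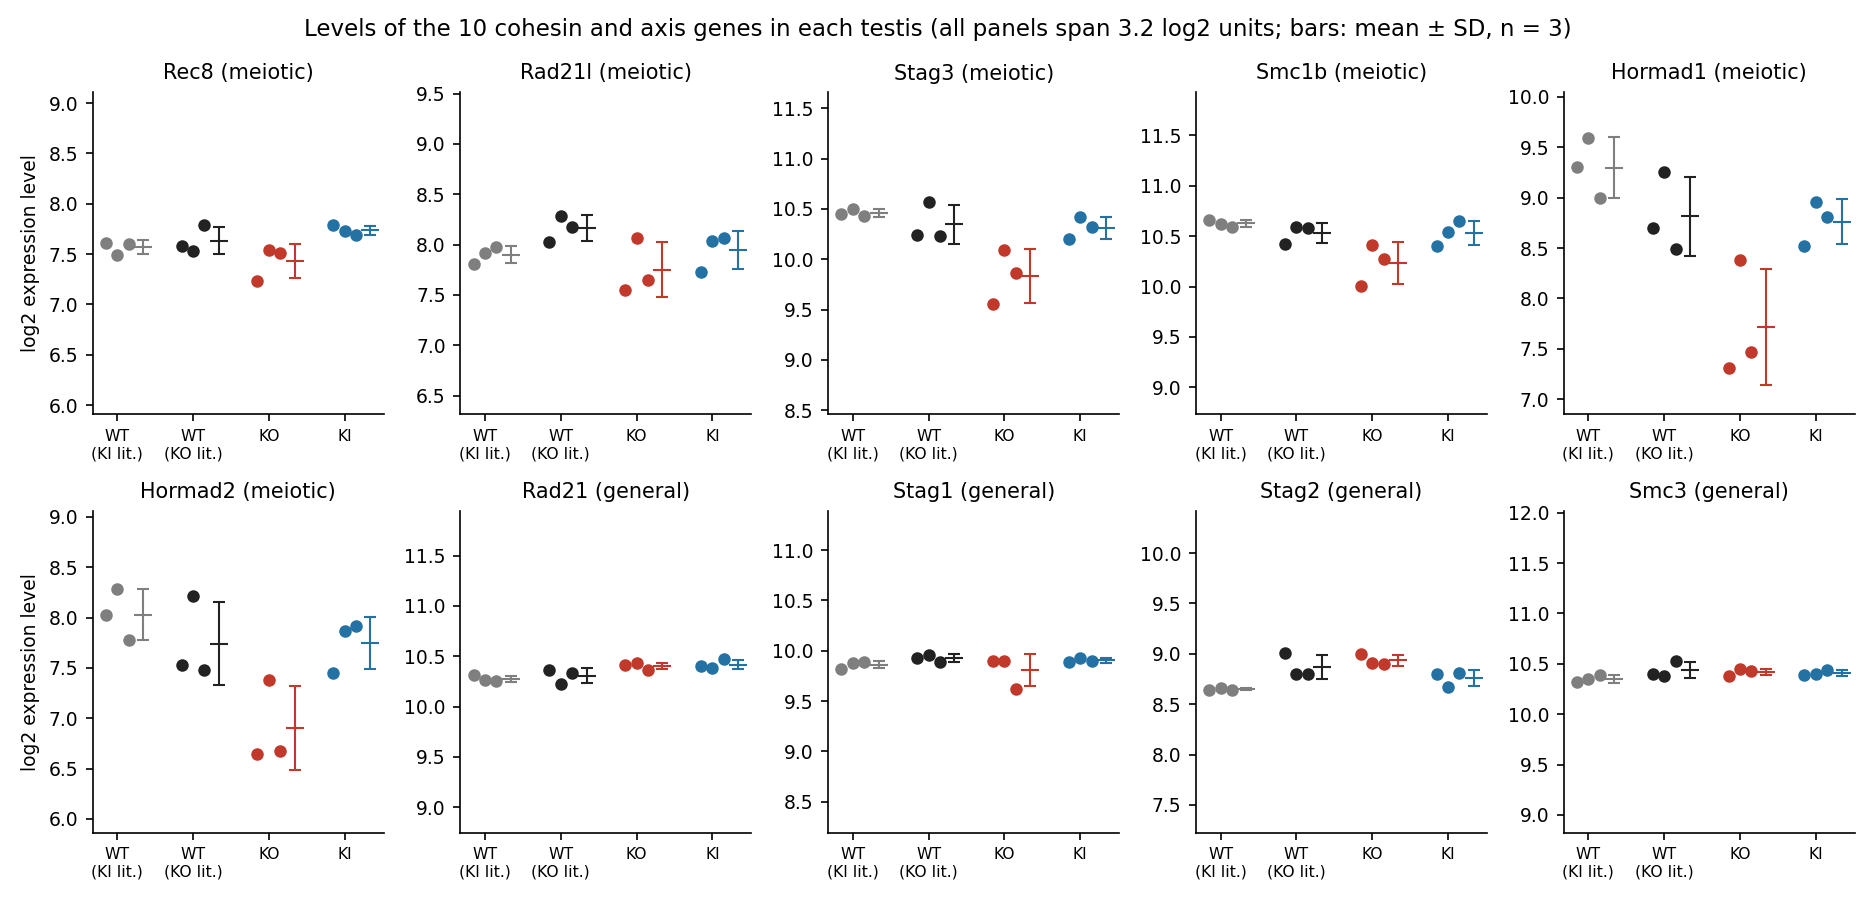
Each panel plots the log2 expression level (vertical axis) of 1 gene in every testis, by group (horizontal axis), with points for single testes and bars for the mean ± SD of each group (n = 3). Hormad1 and Hormad2 spread most, from 7.31 to 9.59 and from 6.65 to 8.28, and their KO testes are below all WT testes.

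The 3 calls depended on which testes were in the fit, while their direction was kept in all 22 other settings. In some of the settings the difference cannot change and only its p-value can. Among these are the filter on dim genes, another variance model and leaving out a KI testis. Each of Hormad1, Hormad2 and Stag3 passed in 14 of these 22. The fit with the WT littermates of the KI mice as the only controls was among the 14. These WT testes had more signal than the KO littermates, by 0.48 for Hormad1, 0.29 for Hormad2 and 0.12 for Stag3, with overlap. None of the 10 members passed without WT 1, WT 2, WT 3, WT 5, KO 1 or KO 3, each left out in turn, and over all genes the calls in those fits numbered between 2 and 36, against 1078 with all testes. None passed when the KI arrays were left out of the fit or when the KO littermates were the only controls. Against those littermates the differences were -1.10 for Hormad1, -0.84 for Hormad2 and -0.51 for Stag3 (limma adjusted p = 0.155, 0.173 and 0.160), and limma called 2 genes in all (0.00902%). At an unadjusted p under 0.05 were 5 members and 15.7% of all genes. The 4 genes without overlap against all WT testes could have none against these littermates, which are among those WT testes. No other member was without overlap against them, and over all genes 17.3% were. Over the 22 settings Hormad1 ranged from -1.67 to -1.10, Hormad2 from -1.22 to -0.84 and Stag3 from -0.70 to -0.43. The outer value was reached without KO 2 and, for Stag3, the inner one without KO 1.

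**Figure D2:**
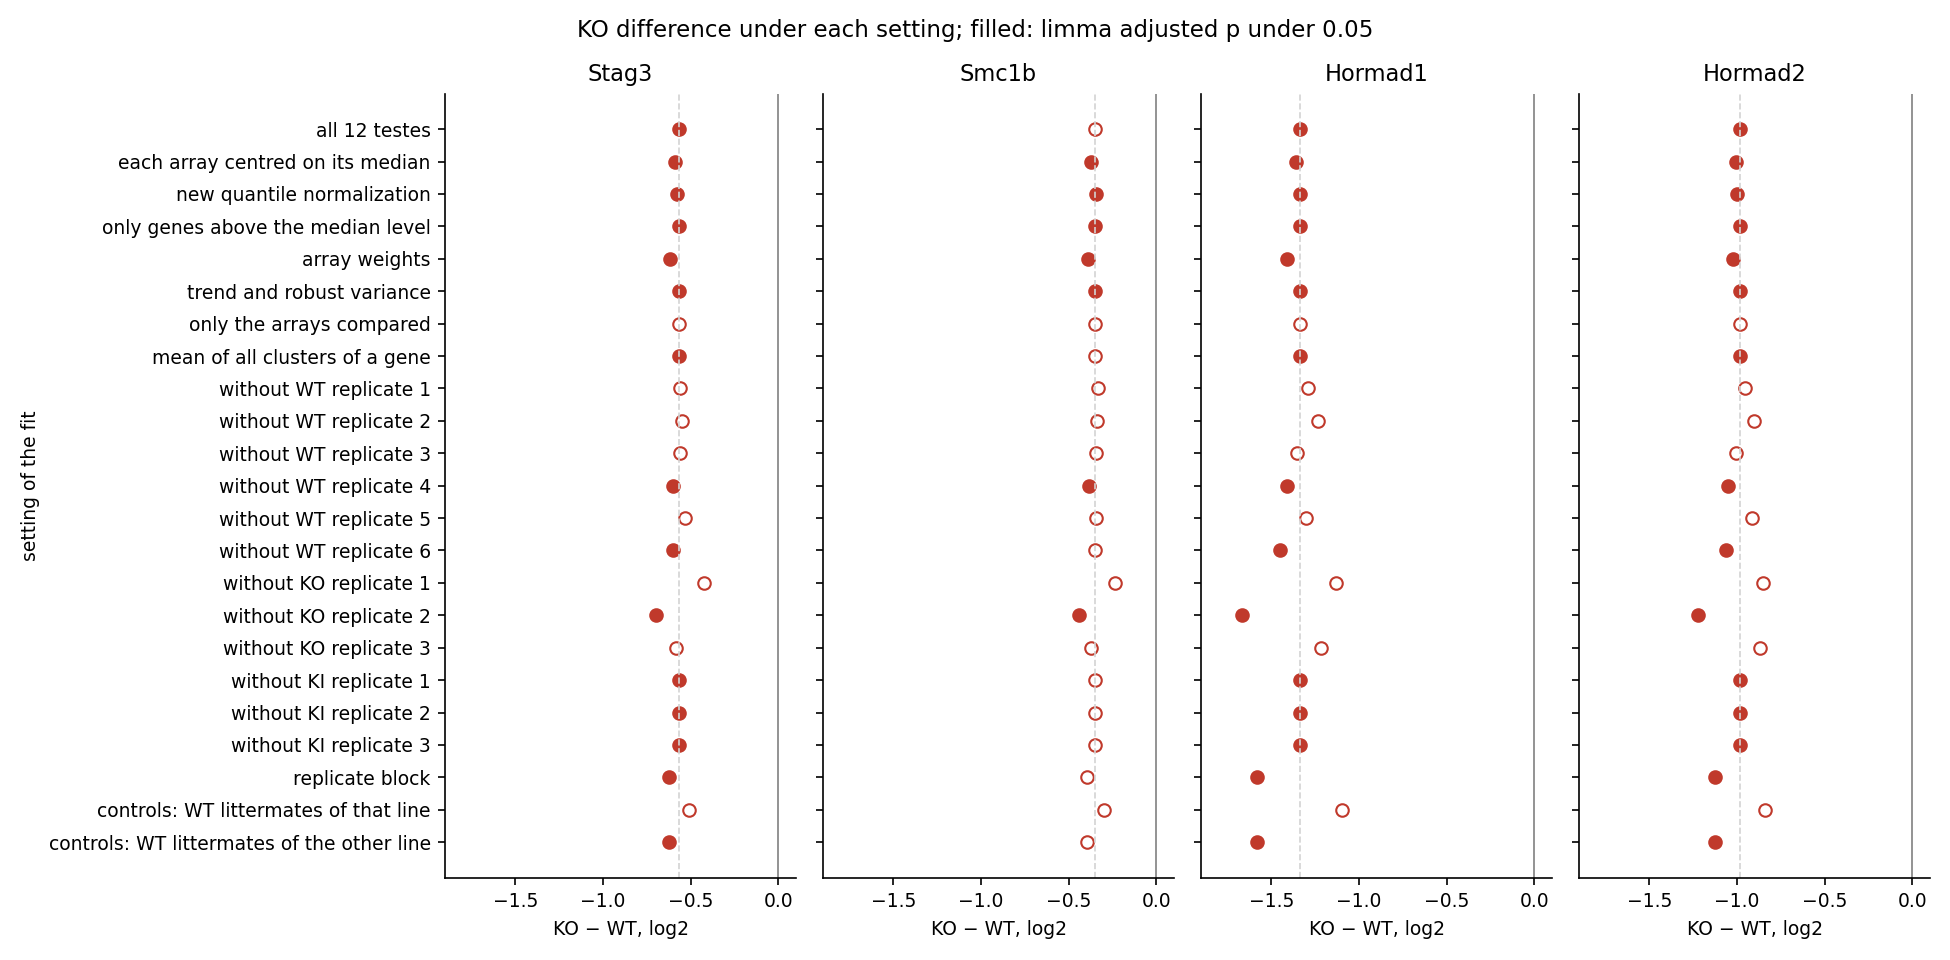
The log2 difference of KO from WT testes (horizontal axis) is plotted for 4 genes under each setting of the fit (vertical axis), with filled points where the limma adjusted p was under 0.05 and a dashed line at the value with all 12 testes. All points lie left of 0, and those for Stag3, Hormad1 and Hormad2 are open without WT 1, WT 2, WT 3, WT 5, KO 1 or KO 3.

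Relative to their general counterparts, the meiotic subunits were lower in every KO testis than in any WT testis in 4 of 5 pairs, although no pair passed after adjustment. For each pair the difference of the log2 values within a testis was compared between groups. Its size in a single testis has no meaning, because the genes have different probes, and only its shift between groups is read. Rec8 minus Rad21 was -3.18 in KO 1, -2.89 in KO 2 and -2.86 in KO 3, against -2.79 to -2.55 in the 6 WT testes. All KO testes were below all WT testes, with a shift of -0.28, although neither gene alone passed the test. Stag3 minus Stag1 was -0.35 in KO 1, 0.20 in KO 2 and 0.24 in KO 3 against 0.31 to 0.63 in WT (shift -0.48). Stag3 minus Stag2 was 0.56 in KO 1, 1.18 in KO 2 and 0.96 in KO 3 against 1.23 to 1.84 in WT (shift -0.74). The KO littermates WT 4, WT 5 and WT 6 were at 1.23, 1.77 and 1.42, and WT 1 to WT 3 at 1.79 to 1.84. Smc1b minus Smc1a, the general arm of the ring, was 1.68 in KO 1, 2.03 in KO 2 and 1.76 in KO 3 against 2.17 to 2.504 in WT (shift -0.53). None of these 4 pairs overlapped between KO and WT, and each had an exact two-sided permutation p of 0.0238, the smallest that 84 splits allow. Rad21l minus Rad21 overlapped, with KO 2 at -2.37 inside the WT range of -2.50 to -1.94 (shift -0.39, exact permutation p = 0.0476). With Benjamini-Hochberg adjustment over the 10 tests of 5 pairs in KO and KI testes, the exact permutation p was 0.0595 for the 4 pairs and 0.0952 for Rad21l with Rad21, so no pair passed after adjustment. The 2 kleisin pairs share Rad21 and the 2 STAG pairs share Stag3, so they are not independent. Stag3 and Smc1b alone were also without overlap, and the pairs were chosen with earlier results of these data known. The p-values of the pairs are therefore a description and not independent support. The shifts include the differences of the general genes, which were 0.11 for Rad21, 0.18 for Stag2, 0.18 for Smc1a and -0.09 for Stag1. None of these general genes passed. The WT testes of both litter origins were pooled in these tests, and Stag2 differed by 0.07 against the KO littermates alone. How often pairs of other genes do not overlap was not counted.

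In KI testes the same pairs shifted by -0.21 to 0.01. The exact permutation p ranged from 0.167 for Rad21l with Rad21 to 0.929 for Rec8 with Rad21, and KI and WT testes overlapped in all 5 pairs. The KI shift of Smc1b with Smc1a was -0.12, and it was 0.01 without KI 1, the testis with the lowest value of that group (1.99). Whether the KO and KI shifts differ was tested for the single genes only.

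**Figure D3:**
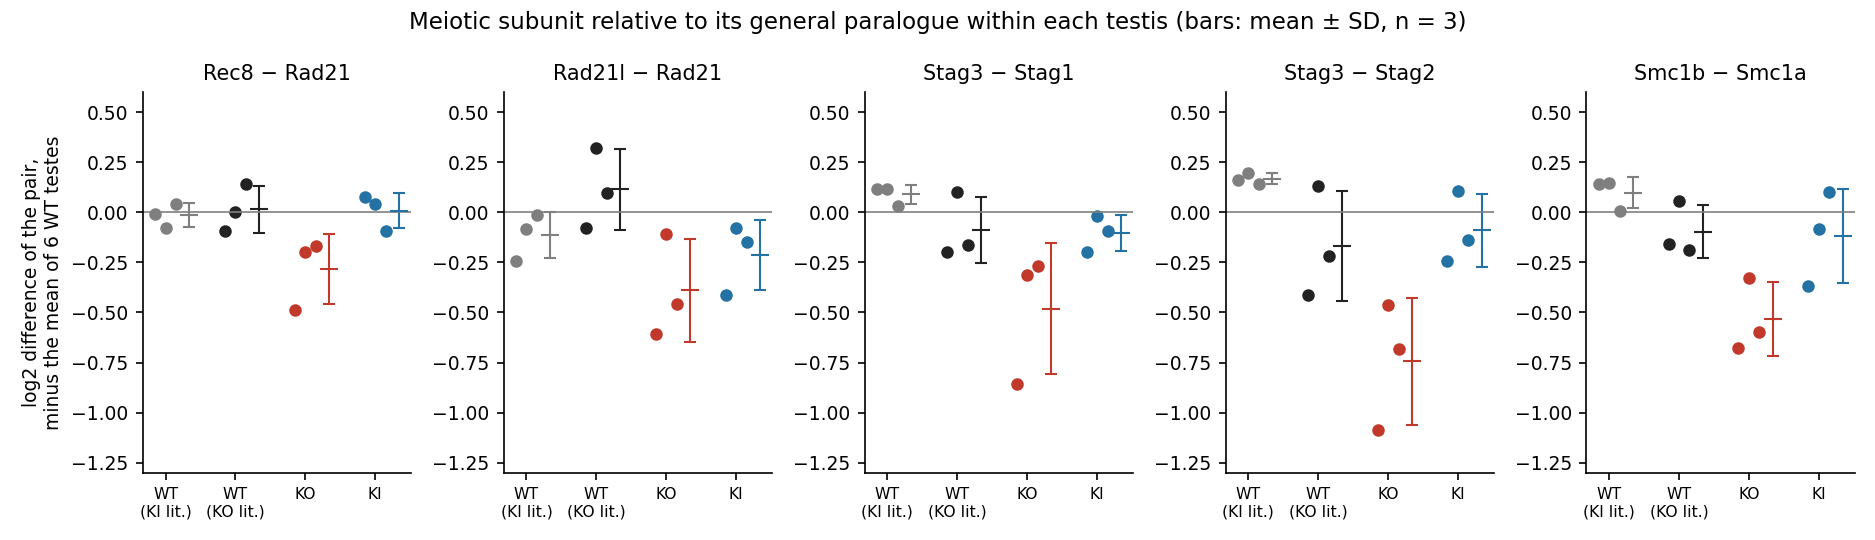
Each panel plots, for 1 pair, the log2 value of the meiotic subunit minus that of its general counterpart in each testis, centred on the mean of the 6 WT testes (vertical axis), by group (horizontal axis), with the mean ± SD (n = 3) as bars. In 4 of the 5 pairs every KO testis lies below every WT testis, and KI testes overlap WT in all 5.

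No member passed in KI testes compared with WT. Over all genes limma called 0, with 1163 genes (5.24%) at an unadjusted p under 0.05, and none of the 10 members was among them. Hormad1 was at 8.52 in KI 1, 8.96 in KI 2 and 8.81 in KI 3, all inside the WT range of 8.49 to 9.59 (log2 difference -0.29, 95% interval -0.85 to 0.27, limma adjusted p = 0.986). Hormad2 was at 7.45 in KI 1, just under the lowest WT testis (7.48), and at 7.87 and 7.92 in the others (log2 difference -0.14, 95% interval -0.60 to 0.32). Stag3 differed by -0.09 (95% interval -0.34 to 0.16) and Smc1b by -0.05 (95% interval -0.25 to 0.15). Rec8 was at 7.69 to 7.78 in KI testes, with KI 1 level with the highest WT testis (7.78) and the others inside the WT range (log2 difference 0.13, 95% interval -0.05 to 0.32), and Rad21l differed by -0.09. Among the general subunits, Rad21 was at 10.38 to 10.47 in KI testes, above every WT testis (log2 difference 0.13, limma adjusted p = 0.949). It was the only member without overlap, where 3.1% of all genes had none. Stag1, Stag2 and Smc3 overlapped WT, with differences of 0.01, -0.00 and 0.02. These intervals leave room for changes of the HORMAD genes in KI testes of up to 0.85 (Hormad1) and 0.60 (Hormad2) downward, so equal levels are not shown.

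Set against their own littermates only, KI testes were lower for Hormad1 and Stag3 without overlap, although neither passed. The WT littermates of the KI mice had Hormad1 at 8.99 to 9.59, above all 3 KI testes (log2 difference -0.54, limma adjusted p = 0.930). Stag3 was at 10.43 to 10.50 in those littermates and at 10.20 to 10.42 in KI testes (-0.15, limma adjusted p = 0.930). Rec8, Rad21, Stag2 and Smc3 lay above these littermates without overlap, by 0.17, 0.14, 0.11 and 0.06. In all, 6 of the 10 members did not overlap, against 14.4% of all genes, and limma called 0 genes (1000, or 4.51%, at an unadjusted p under 0.05, no member among them).

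KI testes had more signal than KO testes for each of the 6 meiotic members, a direction that 40% of all genes had, but no gene passed between the mutants. The differences of KI minus KO testes were 1.05 for Hormad1, 0.84 for Hormad2, 0.48 for Stag3, 0.31 for Rec8, 0.30 for Smc1b and 0.19 for Rad21l. The limma adjusted p lay between 0.146 for Stag3 and 0.525 for Rad21l. Limma called 0 genes over all 22180, with 3993 (18%) at an unadjusted p under 0.05, among them every meiotic member except Rad21l. KI and KO testes did not overlap for Hormad1, Hormad2, Stag3 and Rec8, which were higher in KI, and for Stag2, which was lower. This is 5 of 10 members, against 22.1% of all genes. The general subunits differed by -0.18 (Stag2) to 0.10 (Stag1). Without KO 2, the KO testis with the highest Hormad1, Hormad2 and Stag3, these 3 genes passed between KI and KO testes, as did 721 of all genes (3.25%). No member passed in that comparison when any other single testis was left out. When each mutant was first set against its own littermates, the difference of the mutant effects was 0.56 for Hormad1, 0.56 for Hormad2 and 0.36 for Stag3. This difference passed for no member (limma adjusted p of 0.847 or more), with 0 genes called. At an unadjusted p under 0.05 were 1293 of all genes (5.83%), among them Rec8 (0.37) and Rad21l (0.45) and no other member. Comparisons with KO or with WT share arrays, so the values of KO minus WT, KI minus WT and KI minus KO are not independent.

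**Figure D4:**
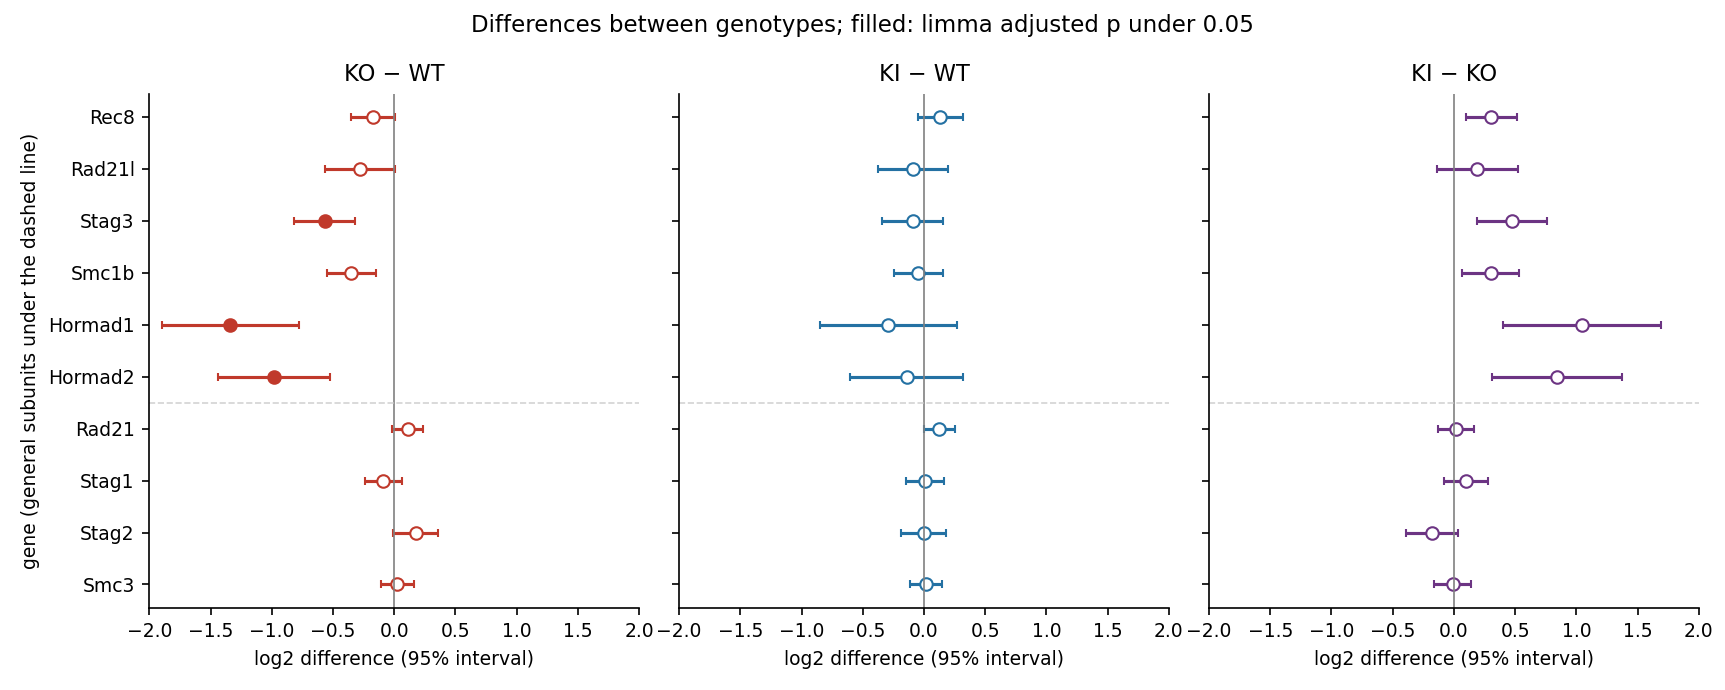
The log2 differences of the 10 members (vertical axis) with 95% intervals (horizontal axis) are plotted for KO minus WT, KI minus WT and KI minus KO, with filled points for a limma adjusted p under 0.05. Hormad1, Hormad2 and Stag3 are filled in KO minus WT, at -1.34, -0.98 and -0.57, and the general subunits under the dashed line lie between -0.18 and 0.18 in all 3 panels.

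The HORMAD genes were among the most variable genes of WT testes. The SD over the 6 WT testes was 0.41 for Hormad1 and 0.34 for Hormad2, larger than in 97.4% and 95.2% of all genes, where the median SD was 0.14. WT 6 (8.49) and WT 4 (8.70) had the lowest Hormad1 and WT 2 (9.59) the highest, and for Hormad2 the lowest testes were again WT 6 (7.48) and WT 4 (7.53). Stag3 (SD 0.14) was lowest in WT 6 and WT 4 as well, at 10.23 and 10.24. Smc1b had an SD of 0.08, and its lowest value, 10.42 in WT 4, stood apart from the other 5 WT testes. The general subunits Stag1 and Rad21 were steady, with SDs of 0.05 and 0.06. Between litters, no member passed, and limma called 0 genes (1174 of all genes, or 5.29%, at an unadjusted p under 0.05, Stag2 among them). Rad21l was lower in the WT testes of the KI litters (7.81 to 7.98) than in those of the KO litters (8.03 to 8.29), with a difference of -0.26 and no overlap. Stag2 was lower in the same direction (8.64 to 8.66 against 8.80 to 9.004, difference -0.22). For comparison, 11.7% of all genes did not overlap between the litters. Hormad1 was 0.48 higher in the KI litters, with overlap.

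Markers of meiotic cells moved with the HORMAD genes across testes. The marker lists were chosen with earlier results of these data known. Over all genes, limma called 2.34% lower and 2.52% higher in KO testes. Of 16 markers of leptotene and zygotene spermatocytes, the early stages of prophase, 13 fell in KO testes and the other 3 missed the threshold (median -0.75). Their mean level was 6.79 to 7.51 in KO, 7.54 to 7.94 in KI and 7.74 to 8.12 in WT testes. Of 16 pachytene markers, of the stage in which chromosomes are fully synapsed, 7 fell and the other 9 missed the threshold (median -1.17). Their mean was 6.30 to 7.12 in KO, 7.29 to 7.70 in KI and 7.02 to 8.04 in WT testes, and it was lowest among WT in WT 6 (7.02) and WT 4 (7.19), which were also the WT testes lowest in Hormad1. Pgk2, Spag6 and Cldn34b4 of this list were under the background limit on average. Of 10 markers of differentiating and preleptotene germ cells 4 fell and 6 did not pass (median -0.30), with means of 8.44 to 8.81 in KO and 8.94 to 9.07 in WT testes. Of 15 markers of undifferentiated spermatogonia 5 rose and 10 did not pass, among them Nanos2 and Eomes, which were under the background limit on average (median 0.22), with means of 6.86 to 6.94 in KO and 6.63 to 6.75 in WT testes. Sertoli cell markers had 4 of 16 higher and 12 not passed (means 9.68 to 9.92 in KO, 9.48 to 9.67 in WT), and Leydig cell markers 1 of 8 higher and 7 not passed (means 9.01 to 9.29 in KO, 8.21 to 8.96 in WT). Of 11 genes of germ cells of any stage 7 fell and the other 4 missed the threshold (median -0.58). Markers of peritubular cells (1 of 8), fibroblasts (2 of 8), endothelium (0 of 7) and macrophages (0 of 8) had these counts higher and none lower. No gene of these lists passed in KI testes. Against the KO littermates alone, 1 marker of undifferentiated spermatogonia passed and no gene of the other lists did, with medians of -0.73 for leptotene and zygotene and -0.82 for pachytene markers. The part of these cell types in the differences of the cohesin and axis genes was not tested.

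**Figure D5:**
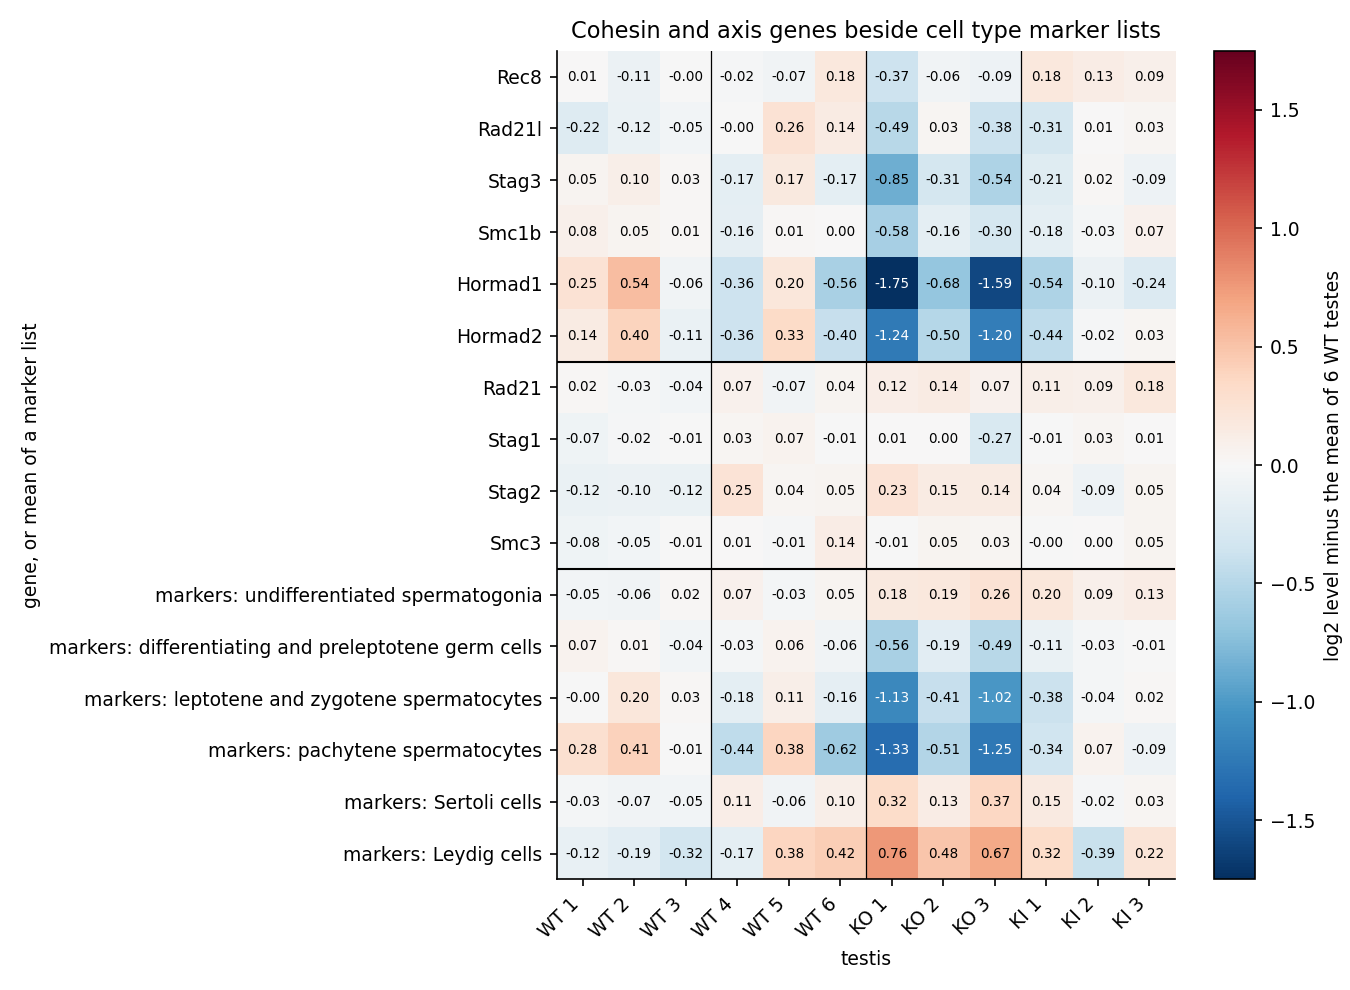
Each cell gives the log2 level minus the mean of the 6 WT testes (colour scale and printed value) for 1 gene or the mean of 1 marker list (rows) in 1 testis (columns). KO 1 and KO 3 are lowest in Hormad1, Hormad2 and in the leptotene, zygotene and pachytene markers, KO 2 is nearer to WT in all of them, and the 4 general subunits lie between -0.27 (Stag1 in KO 3) and 0.25 (Stag2 in WT 4).

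Other genes of cohesin biology mostly did not pass. Over all genes, 4.86% were called in KO testes in either direction and 2.34% as lower. In a list of 18 genes that holds the ring subunit Smc1a, the loop-boundary genes Ctcf and Ctcfl, and genes that load, release, modify, cleave or protect cohesin, 1 passed in KO testes and 17 missed the threshold (median -0.13). The gene that fell was Meikin, which encodes a protein that protects cohesin at centromeres in the first meiotic division (log2 change -0.82, SE 0.19, limma adjusted p = 0.0371). It was at 5.41 to 6.37 in WT and at 5.06 to 5.13 in KO testes, under the background limit, so the size of this change is not fixed. In the list of chromosome axis and synapsis partners, 8 of 18 measured genes fell and the other 10 missed the threshold (median -0.32). Against the KO littermates alone, none of the 18 genes of either list passed (medians -0.34 for the partners and -0.11 for the cohesin list). Against all 6 WT testes, the 4 partners with the smallest p were Syce3, Atr, Sycp2 and Tex12, with limma adjusted p of 0.0204 to 0.0317. Syce3 (-0.88) and Tex12 (-0.75) are of the central element of the synaptonemal complex, and Sycp2 (-0.98) is of the axis itself. The checkpoint kinase gene Atr, whose protein acts on unsynapsed axes, was at -0.73. Trip13, which encodes the ATPase that takes HORMAD proteins off synapsed axes, was at -0.03 (limma adjusted p = 0.818). Iho1, whose protein binds HORMAD1, fell by 0.43 on the log2 scale (limma adjusted p = 0.0378). No gene of either list passed in KI testes, where the medians were 0.004 and -0.08.

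Over the 12 testes, the genes outside the 10 whose level most closely followed the mean of the 6 meiotic members were Sycp2 (Pearson r = 0.994), Atr (0.993), Rad9b, of a DNA damage clamp (0.992), Tex101, of the germ cell surface (0.991), and Ythdc2, an RNA helicase needed for meiotic entry (0.991). Within the 6 WT testes alone r was 0.960 to 0.994 for these 5 genes, which were chosen over 12 testes that include these 6. The 6 members did not all move together within WT. Rec8 had r of -0.80 with Hormad1, -0.75 with Hormad2 and -0.71 with Stag3, and Rad21l had -0.40 with Hormad1. Hormad1, Hormad2 and Stag3 had r of 0.88 to 0.96 with each other. The r over 12 testes includes the difference between KO and the other groups, and no r was tested. The mean of the 6 meiotic members was 8.05 in KO 1, 8.64 in KO 2 and 8.24 in KO 3, against 8.68 to 8.93 in KI and 8.75 to 9.08 in WT testes. With the general subunits this mean had r of -0.71 for Stag2, -0.49 for Rad21, -0.22 for Smc3 and 0.47 for Stag1.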

How the data were processed

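The authors deposited log2 expression values per transcript cluster of an Affymetrix whole-transcript array, made with RMA, Partek 6.6 and Affymetrix Expression Console, per the submitters' processing notes, which do not say what each did. RMA brings arrays to a common distribution, so values are relative within an array. Per the labels' protocols, Trizol RNA was treated with DNase and labelled with the WT PLUS kit. Any filter and the annotation release: not given in the sources used here.

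Of 41345 clusters, 23521 had 1 symbol in the platform annotation, 1814 several and 16010 none. A gene with several clusters took the one of highest mean, which gave 22180 genes. Genotypes were compared with limma 3.58.1 in R 4.3.3 (two-sided, no filter on dim genes, Benjamini-Hochberg adjustment over all genes at 0.05). KO, KI and all WT were fitted as 3 groups over 12 arrays, and comparisons of littermates as 4 groups. Paralogue pairs were tested with exact permutation tests over all splits (Python 3.11.15, numpy 2.4.6, pandas 2.3.3, scipy 1.17.1; figures with matplotlib 3.10.9). Members, pairs, lists and motifs were chosen with earlier results of these data known. Genes named were the 10 members, Sox3, up to 4 genes of smallest p from each pathway list, and the 5 genes of closest pattern; Trip13 and Iho1 were added after their values were seen. On simulated data for KO against WT (22180 genes, 200 changed), limma recovered 93.0% of 2-fold and 56.0% of 1.41-fold changes, with 5.28% of calls false. Whether these rates hold for the measured testes was not tested. Alternatives were other scalings, a filter on dim genes, array weights, another variance model, other controls, fewer arrays and a replicate block. Arrays with the same replicate number deviated together (r over 0.1) in 3 of 9 pairs, and 6 of 9 arrays correlated best with their own number. The numbers were not taken as pairs, although these values do not exclude pairing. The platform annotation gave no single-symbol cluster for Sycp3 or Ankrd31, which were not analysed here.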

Additional observations from a re-analysis of the deposited data

Results flagged for a closer look

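Among the 10 members and 5 paralogue pairs, tested for a single extreme value in the 6 WT testes, Smc1b in WT 4 was set apart: it was at 10.42 in log2 units, while the other 5 WT testes were at 10.58 to 10.66. The gap to the next testis, as a share of the range, exceeded Dixon's 95% critical value for 6 values. Chance flags about 1 in 20 such groups, and 15 were tested. Without WT 4 the KO difference of Smc1b was -0.38 (limma adjusted p = 0.0357).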

How the results depend on the processing

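Over all alternatives, 129 counts of members called stayed within 1.5 times the main count and 11 did not; of the values of single members, 1329 kept direction and side of the threshold, 24 lost the threshold, 15 gained it and 32 changed sign. In KO minus WT, 3 members were called, 0 with only the arrays compared and 0 with the littermates of that line as controls. It was 4, with Smc1b added, in 7 settings. Leaving out 1 testis gave 0 to 4 members called in KO minus WT, 0 to 4 in KO minus its littermates and 0 to 3 in KI minus KO.

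With a replicate block, for numbers that are not shown to pair the testes (6 of 9 arrays correlated best with their own number), the counts were 3 members in KO minus WT, 0 in KI minus WT and 1 in KI minus KO, and 247 genes in the last. Numbers 4 to 6 belong to WT 4 to WT 6 alone, so the block takes these testes out of the comparisons with WT. WT in this fit therefore stands for the littermates of the KI mice only, also in KO minus WT. KI minus WT then was 0.0424 for Rad21l and 0.108 for Stag2, the same as with littermates of the KI line as controls. With littermates of the KO line as controls, KO minus WT of Smc3 was -0.0178. With littermates of the other line, KI minus WT was 0.0008333 for Smc1b, 0.003123 for Hormad2, -0.0209 for Stag1 and -0.0278 for Smc3. Sign also changed for KI minus KO of Smc3 with median-centred arrays (0.0102), and for KI minus WT of Stag1 with new quantiles (-0.002306) and of Stag2 with array weights (0.0238). The causes of these last sign changes were not tested.

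With 1 testis left out, values crossed 0 in these ranges. KO minus WT: Stag1 -0.135 to 0.004283. KI minus WT: Rad21l -0.148 to 0.0207, Smc1b -0.105 to 0.0175, Hormad2 -0.227 to 0.009447, Stag1 -0.003935 to 0.0239, Stag2 -0.0274 to 0.0476, Rec8 minus Rad21 -0.0256 to 0.0587 and Smc1b minus Smc1a -0.226 to 0.0080483. KI minus KO: Rad21 -0.0125 to 0.0321 and Smc3 -0.0278 to 0.00405. WT litters: Rec8 -0.113 to 0.0122. KO minus its littermates: Smc3 -0.0471 to 0.0282. KI minus its littermates: Rad21l -0.0176 to 0.151. Difference of mutant effects: Stag2 -0.0258 to 0.0873. The KO shift of Rad21l minus Rad21 was -0.53 to -0.28 and had an exact permutation p of 0.0714 without WT 2, 3, 4, 5 or 6; without 1 KO testis no smaller p is possible.

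Genes called in KO minus WT numbered 1078, but 2459 among genes above the median level, 2048 with a trended robust variance, 30 with only the arrays compared, 2 with littermates of that line and 2 to 2323 with 1 testis left out. KI minus KO had 0, and 57, 5 and 0 to 721 under the filter, the robust variance and leaving out 1 testis. WT litters had 0, 1 with the robust variance and 0 to 50. KO minus its littermates had 2, and 32, 41 and 0 to 605 in the same order, 0 with only the arrays compared, and 1 with array weights or averaged clusters. The number of arrays limits what could be detected.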
